A study of Mus musculus with 5 samples.

Results

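TGF-beta, BMP and activin signalling genes were examined in knee joints of mice lacking 2 small leucine-rich proteoglycans, epiphycan (Epyc) and biglycan (Bgn), and in wildtype joints. The set held 39 listed genes: 11 ligands, 3 latent TGF-beta binding proteins, 6 antagonists, 8 receptors or co-receptors, 7 Smads and 4 target genes. Each was found by its platform gene symbol among 12393 genes with a probe set and was represented by its brightest probe set, taken by the mean over all 5 arrays. Of the 39 members, 30 had a mean above the intensity filter (a signal near 98.5) and were tested among 7436 genes, and 9 were too dim for the test.

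The wildtype group had 2 RNA pools and the double-null group, null for both Epyc and Bgn, had 3. All mice were males aged 3 months on a C57/Bl6:129 hybrid background, and each pool joined the tibio-femoral joints of 3 mice, 6 joints per array, so the spread between single animals was not measured. The arrays were Affymetrix chips whose values came in 2 tables with separate platform records, and whether the chips or a batch differed as well was not stated. Table A held wildtype pool 2 and double-null pool 3, and table B held wildtype pool 1 and double-null pools 1 and 2. Whole joints contain cartilage, bone, marrow, muscle, fat, vessels and fibrous tissue, and in such material fewer cells of a type and less RNA per cell cannot be told apart.

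TGF-beta family ligands are secreted dimers that bring type II and type I receptor kinases together. TGF-beta and activin receptors phosphorylate Smad2 and Smad3, and BMP receptors phosphorylate Smad1 and Smad5. Both kinds of receptor-activated Smad enter the nucleus with Smad4. TGF-beta is stored in the matrix in a latent complex with the Ltbp proteins, and secreted antagonists hold BMPs and activins away from their receptors. In joints the family is known for cartilage and bone formation, joint specification and matrix synthesis, and biglycan protein is known to bind TGF-beta and BMP ligands.

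The promoter table from RefSeq (GRCm38.p6) held 26 of the 39 members. The 250 bases before the annotated starts of Id2, Id3 and Smad6, known targets of the BMP branch, are shown. Smad activity itself was not measured. Id2 and Id3 encode inhibitors of basic helix-loop-helix factors, and Smad6 encodes an inhibitory Smad. They lie at chr12:25096093-25096342 (minus strand), chr4:136143572-136143821 (plus strand) and chr9:64022060-64022309 (minus strand). The Id2 and Id3 windows end at the annotated gene start, and the last bases of the Smad6 window lie within the annotated gene. Capitals mark GGCGCC, the core of a GC-rich BMP-Smad element, and CAGAC on either strand (GTCTG when it lies on the other strand), the Smad-binding element.
Id2: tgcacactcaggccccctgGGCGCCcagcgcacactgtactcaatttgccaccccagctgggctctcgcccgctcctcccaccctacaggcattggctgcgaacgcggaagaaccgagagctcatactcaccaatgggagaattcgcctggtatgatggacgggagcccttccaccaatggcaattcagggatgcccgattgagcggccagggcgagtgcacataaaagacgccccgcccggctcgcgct
Id3: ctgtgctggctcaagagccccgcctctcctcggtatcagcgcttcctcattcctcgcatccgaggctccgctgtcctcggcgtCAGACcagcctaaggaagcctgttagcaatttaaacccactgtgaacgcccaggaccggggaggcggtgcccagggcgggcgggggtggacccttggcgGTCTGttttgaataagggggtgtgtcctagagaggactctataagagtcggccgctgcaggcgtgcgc
Smad6: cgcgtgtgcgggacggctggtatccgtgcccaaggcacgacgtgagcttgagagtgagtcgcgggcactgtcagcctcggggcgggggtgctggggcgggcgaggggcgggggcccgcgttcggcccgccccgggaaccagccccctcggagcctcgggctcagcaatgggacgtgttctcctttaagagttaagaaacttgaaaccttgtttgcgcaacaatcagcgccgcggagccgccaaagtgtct
The Id2 window held 1 GGCGCC and no CAGAC, the Id3 window 2 CAGAC and no GGCGCC, and the Smad6 window neither. Of 32851 such windows of all genes, 9.59% held GGCGCC and 42.2% held CAGAC, so the short motifs are common and a match here is a description only.

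The Bgn and Epyc probe sets separated the genotypes as labelled. On its 3 probe sets Bgn had mean signals of 2708 to 3209 in wildtype and 20.9 to 211 in double-null pools (limma over all probe sets, log2 fold changes of -6.003 to -3.48, adjusted p = 0.00062 to 0.0047). Epyc read 85.0 ± 8.79 (SD, n = 2) and 5.17 ± 5.02 (n = 3) and missed the threshold over all probe sets (-1.64, adjusted p = 0.16). Bgn lost its calls, with the sign kept, when wildtype pool 1, or either array of table A, was dropped. Whether the probes lie within the deleted parts was not given in the sources used here. Array-to-array correlations over the tested genes ran from 0.948 to 0.968. The array background was taken as the highest of 27 Bacillus control probe sets, which have no mouse target. Of 103 marker genes with a probe set, all but Pax5 of the B lineage and Lep of fat lay above it on at least 1 array. Markers of cartilage, bone, marrow, muscle and tendon were among those. Some lay above it on some arrays only, such as Scx, Hba-a1, Matn1, Calcr and Ocstamp. That highest control read 27.5 to 63.5, and 36 to 38 of the 39 members lay above it on each array.

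No member passed the threshold between double-null and wildtype joints. Of 30 tested, 0 had a limma adjusted p under 0.05 over all 7436 genes, where 0.121% of all genes (9) did, and the smallest adjusted p was 0.22, for Inhbb. Each difference is a fitted value of double-null over wildtype joints, as log2 of the signal plus 32, with the table as a term of the fit; the added 32 understates differences of dim genes. Without the adjustment 5 members had p under 0.05 and a higher value in double-null joints (3.52% of all genes) and 2 a lower one (2.65% of all genes). The higher were Inhbb, Gdf10, Ltbp3, Fstl1 and Pmepa1, and the lower were Inhba and Eng.

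Most fitted differences were small. The median over the 30 was 0.12, from -0.52 to 1.30, against a median of -0.011 over all genes tested, whose middle 50% lay between -0.14 and 0.13. Of the 30, 19 were positive, against 47.9% of all genes tested. All double-null arrays lay above both wildtype arrays on the normalised scale for 8 members (9.45% of all genes) and below both for 1 (10.2% of all genes). The 95% interval of the difference lay within 1 on either side of 0 for 28 of the 30, so a 2-fold difference on that scale was outside it for those; the exceptions were Inhbb and Gdf10. The list was proposed with earlier results of these arrays known, so its counts are descriptive.

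**Figure D1:**
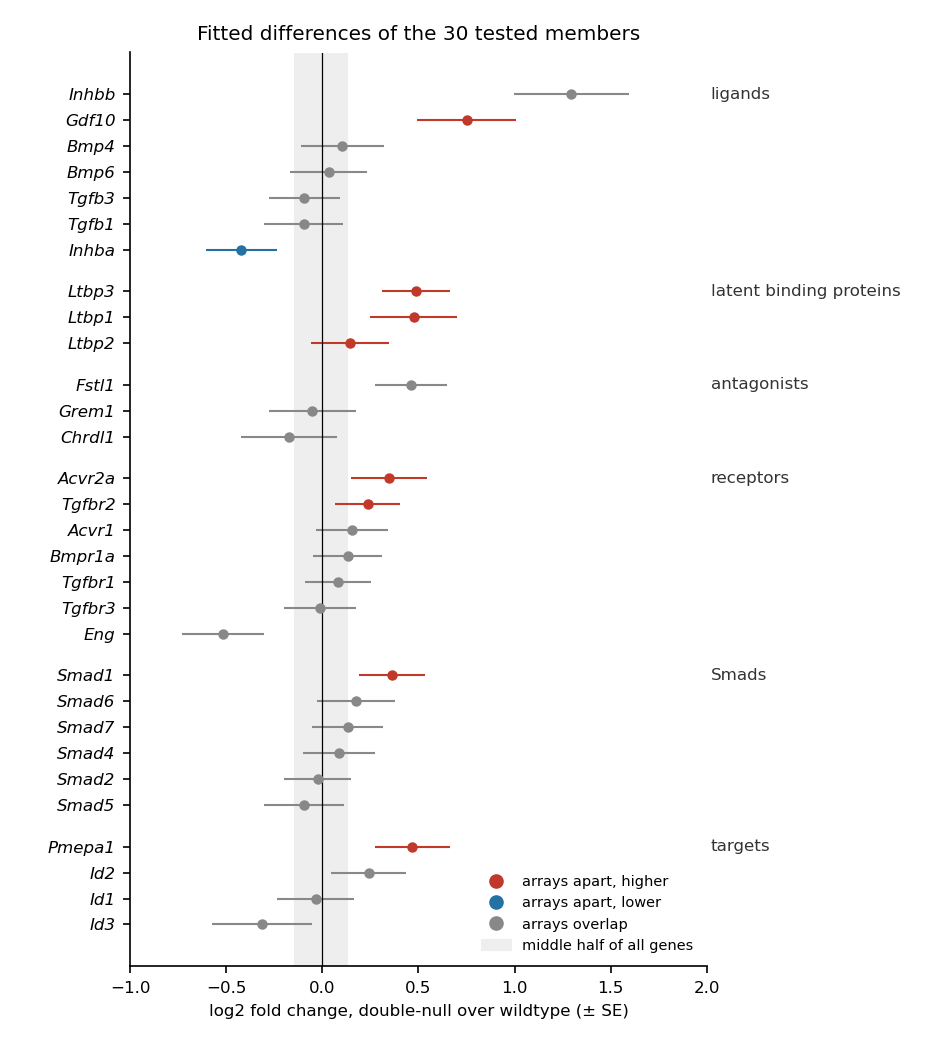
Fitted log2 fold changes (x axis, double-null over wildtype, ± SE) of the 30 tested members by role; red and blue points mark members whose 3 double-null arrays all lay above or all below the 2 wildtype arrays, and the grey band spans the middle 50% of all 7436 genes. Inhbb at 1.30 and Gdf10 at 0.75 lie farthest to the right, Eng at -0.52 and Inhba at -0.42 farthest to the left.

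Among the ligands the activin subunit genes differed in sign. Inhbb encodes the beta B subunit of activin B and inhibin B, and Inhba the beta A subunit of activin A and inhibin A. Inhbb read 29.5 and 93.0 in wildtype pools 1 and 2 and 70.6, 215 and 230.3 in double-null pools 1 to 3. Double-null pools 2 and 3 were above both wildtype pools, but double-null pool 1 was below wildtype pool 2, so the groups overlapped. The fitted difference was 1.30 ± 0.30 (SE), a 2.46-fold difference with a 95% interval of 0.64 to 1.95 (limma adjusted p = 0.22, rank 35 of 7436 by p). Inhbb was dim and passed the intensity filter through the double-null arrays, since both wildtype signals lay under it. In wildtype pool 1 it lay under the highest Bacillus control, 38.5. Without double-null pool 1, the lowest of the double-null arrays, the value was 1.54 (adjusted p = 0.0093), and over the alternative settings its adjusted p ran from 0.0093 to 0.999. Its dimmer probe set, which missed the filter, gave 0.12.

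Inhba read 354 and 332 in wildtype and 199, 273 and 262 in double-null pools. Every double-null array lay below both wildtype arrays, as for 10.2% of all genes. The fitted difference was -0.42 ± 0.18 (SE, a fold of 0.746, limma adjusted p = 0.77), at -0.31 in table A and -0.51 in table B. Inha, the alpha subunit gene shared by the inhibins, was at -0.0078 with overlapping groups (limma adjusted p = 0.997).

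Gdf10 encodes BMP3B, a BMP-like ligand of skeletal tissue. It read 72.6 and 127.8 in wildtype and 237, 171 and 143 in double-null pools. Wildtype pool 1 lay under the filter signal of 98.5, and the wildtype mean of 100.2 was near it. The groups did not overlap, but double-null pool 3 exceeded wildtype pool 2, its partner in table A, by little. The difference was 0.75 ± 0.26 (1.68-fold, adjusted p = 0.63), with 0.11 in table A and 1.23 in table B.

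The other 4 ligands tested had overlapping groups. Tgfb1, the TGF-beta isoform abundant in bone matrix and blood cells, read 1241 and 1009.7 in wildtype and 1055, 838 and 1269.9 in double-null pools, at -0.10 with a 95% interval of -0.55 to 0.35. Tgfb3 read 181 and 189 against 161, 145 and 185, and all but the highest double-null array lay below both wildtype arrays (-0.094). Bmp4, an osteogenic BMP, read 131 and 114 against 100.4, 106 and 175, with the highest and the lowest values both in double-null pools (0.10). Bmp6 read 109 and 91.5 against 109, 112 and 88.8 (0.032).

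Tgfb2, Bmp2, Bmp7 and Gdf5 were too dim to be tested. Gdf5, a marker of joint interzone and articular progenitors, read 6.74 to 35.8 and lay above the highest Bacillus control on 1 of 5 arrays. Bmp7 read 127 and 103 in wildtype and 83.7, 64.5 and 83.3 in double-null pools, with no overlap. Tgfb2 read 47.3 and 139 against 48.5, 87.0 and 180, and in both groups the table A pool was the highest. Bmp2 read 57.8 and 101 against 87.3, 119 and 60.4. When all genes were fitted without the filter, Bmp7 was at -0.40 and Tgfb2 at 0.37, and no dim member had an adjusted p below 0.87.

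The 3 latent TGF-beta binding proteins each had double-null arrays above both wildtype arrays, as did 9.45% of all genes, and none passed the test. Ltbp1 and Ltbp3 tether the latent TGF-beta complex in the matrix, and Ltbp2 is a microfibril protein of the same family that does not bind latent TGF-beta. Ltbp3 read 452 and 482 in wildtype and 669, 561 and 739 in double-null pools (0.49 ± 0.18, 1.40-fold, limma adjusted p = 0.66). Ltbp1 read 107 and 139 against 231, 149 and 160.2, at 0.48 ± 0.23 (adjusted p = 0.82). Ltbp2 read 115 and 113 against 146, 115 and 120.4, at 0.14 ± 0.20 (adjusted p = 0.99), a separation of under 1 signal unit between wildtype pool 1 and double-null pool 2.

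A second Ltbp3 probe set did not follow the first. It read 429.9 and 182 in wildtype and 241, 192 and 261 in double-null pools, at -0.30, with wildtype pool 1 the highest array. With the mean over probe sets Ltbp3 was at 0.093. Ltbp1 was at 0.16 in table A and 0.71 in table B, so its size rested on the pools of table B.

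**Figure D2:**
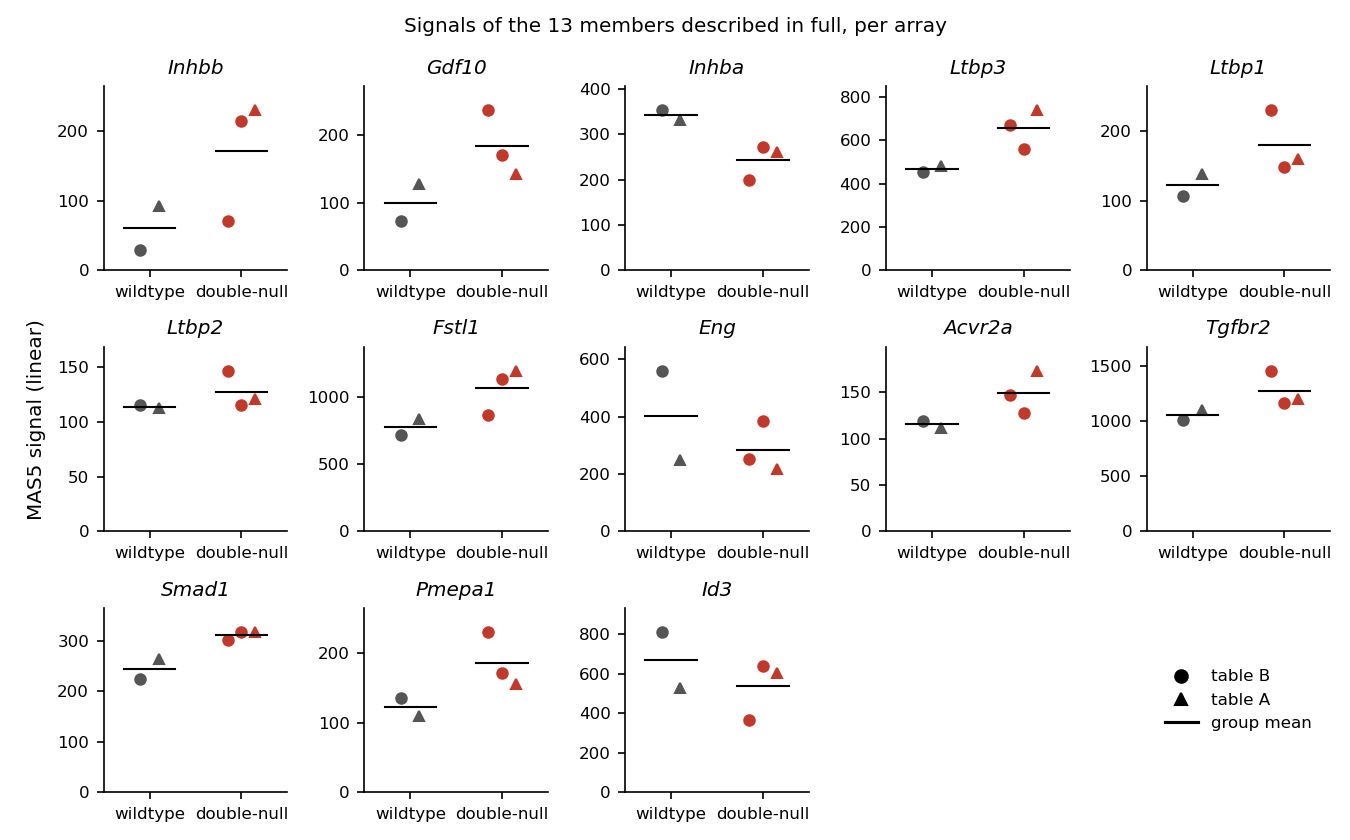
Deposited MAS5 signals (y axis, linear, from 0) of the 13 members described in full on each of the 5 arrays, by genotype; circles are table B, triangles table A, and bars group means. Inhba, Ltbp1, Ltbp2, Ltbp3, Gdf10, Fstl1, Acvr2a, Tgfbr2, Smad1 and Pmepa1 show no overlap of signals between groups, whereas Inhbb, Eng and Id3 do. The 13 were chosen for groups apart on the normalised scale or a difference of at least 0.25, so most are apart by selection. On that scale 9.45% of all genes were apart and higher and 10.2% apart and lower. The share on deposited signals was not computed.

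Of the 3 antagonists tested, Fstl1 was positive and the other two negative. Fstl1 encodes a secreted follistatin-like glycoprotein of mesenchymal cells that binds BMP4 and TGF-beta family receptors. It read 715 and 833 in wildtype and 864, 1133 and 1190.4 in double-null pools. The deposited signals did not overlap, though after quantile normalisation double-null pool 1 overlapped wildtype pool 2. The difference was 0.46 ± 0.19 (1.38-fold, adjusted p = 0.74), at 0.53 in table A and 0.41 in table B, and its second probe set was at 0.67.

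Grem1 and Chrdl1, which bind BMPs, had overlapping groups. Grem1 (gremlin 1) read 97.0 and 193 in wildtype and 76.05, 136 and 147 in double-null pools, at -0.053. Chrdl1 (chordin-like 1) read 136 and 102 against 98.1, 66.8 and 131, at -0.17. Noggin (Nog), an extracellular BMP trap, read 4.77 to 26.3 and lay under the highest Bacillus control on all 5 arrays, so its level was not distinguished from background. Chrd (chordin) read 103 and 81.3 in wildtype and 77.6, 77.4 and 56.8 in double-null pools. Those groups did not overlap, but Chrd was below the filter (-0.28 without it). Fst (follistatin), the activin trap, read 112 and 95.7 against 44.1, 100.5 and 127 and was below the filter too.

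Of the 7 receptor genes tested, 5 had positive values (47.9% of all genes) and none passed the test. Tgfbr2, the type II TGF-beta receptor, read 1007 and 1096 in wildtype and 1454, 1168 and 1197 in double-null pools. Its groups did not overlap, at a difference of 0.24 ± 0.17 (adjusted p = 0.92). Acvr2a, a type II receptor for activins and several BMPs, read 119 and 112 against 148, 128.2 and 173. It was at 0.35 ± 0.20 (adjusted p = 0.85), again with the groups apart. These were the 2 receptor genes apart and higher, and 0 were apart and lower. The shares of all genes were 9.45% and 10.2%.

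The type I receptor genes overlapped between groups. Tgfbr1 read 689.6 and 618 in wildtype and 851, 707 and 623 in double-null pools (0.081), and double-null pool 3 lay between the wildtype arrays. Bmpr1a read 206 and 232 against 256, 247 and 219 (0.13). Acvr1, a type I receptor for BMPs, read 147 and 203 against 172, 195 and 189 (0.15), but 2 other probe sets above the filter were at -0.30 and -0.50, both with wildtype pool 1 as the highest array. The co-receptor gene Tgfbr3 (betaglycan) read 171 and 149.98 against 131, 159 and 172 (-0.011). Bmpr2, the type II BMP receptor, read 45.4 to 81.2 over all arrays and was below the filter.

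Eng (endoglin), a TGF-beta and BMP co-receptor of endothelial cells, depended on wildtype pool 1. It read 558 in wildtype pool 1, 248 in wildtype pool 2 and 250.4, 383 and 218 in double-null pools, so 1 wildtype array was far above the rest. The difference was -0.52 ± 0.21 (adjusted p = 0.76), at -0.17 in table A and -0.78 in table B, and the second probe set, which read 90.6 and 92.3 against 147, 105 and 152, was at 0.49. The mean over both was at -0.016. The endothelial marker list had 10 genes with a probe set, 5 positive and 3 negative of 8 tested. Its summed deposited signal ran from 1901 to 2044 in wildtype and from 1877 to 2208 in double-null pools. The macrophage list summed to 22021 in wildtype pool 1 and to 15390 to 20678 on the other arrays, and its part in the Eng value was not tested.

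**Figure D3:**
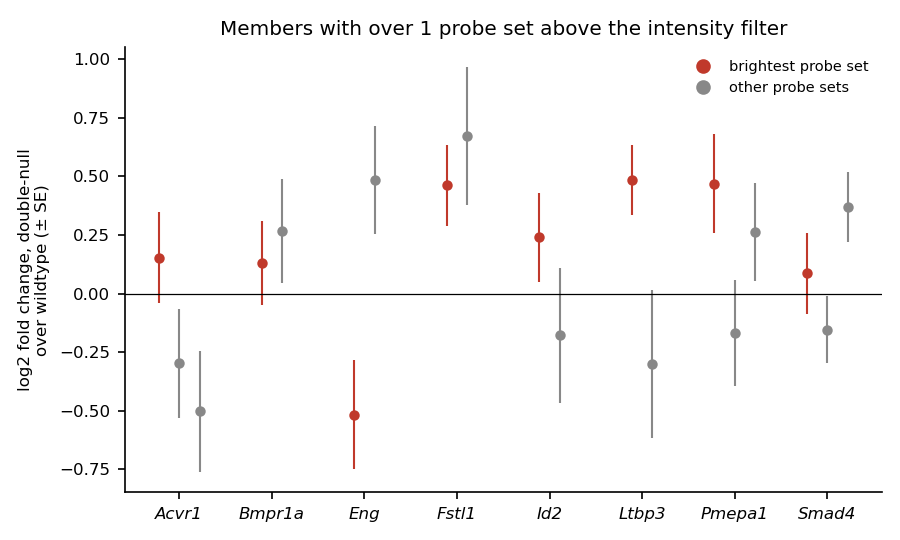
Fitted log2 fold changes (y axis, double-null over wildtype, ± SE, fit over all probe sets) of the 8 members with over 1 probe set above the intensity filter, the brightest in red. For 6 of the 8 (Acvr1, Eng, Id2, Ltbp3, Pmepa1 and Smad4) the probe sets differ in sign; Bmpr1a and Fstl1 keep theirs.

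Of the 6 Smad genes tested, 1 had its groups apart, a share near that of all genes (9.45% higher and 10.2% lower). Smad1, a BMP-activated Smad, read 223 and 263 in wildtype and 302, 317 and 317 in double-null pools. The 3 double-null arrays lay close together and above both wildtype arrays, at 0.36 ± 0.17 (1.28-fold, adjusted p = 0.82). Its second probe set missed the filter, at 0.19. The other BMP-activated Smad tested, Smad5, read 269 and 195 against 161, 249 and 229, with overlap, at -0.096.

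The common partner Smad4 and the TGF-beta branch overlapped between the groups. Smad2 read 218 and 187 in wildtype and 189, 213 and 189.8 in double-null pools, the smallest ratio of highest to lowest array among the tested members (1.16), at -0.024 (95% interval -0.41 to 0.36). Smad3 read 64.8 to 127 over all arrays and was below the filter. Smad4 read 503 and 789.6 against 544, 683 and 716 (0.086), with its other probe sets at -0.15 and 0.37. The inhibitory Smad6 read 108 and 110.3 against 98.6, 103 and 158 (0.18), and the inhibitory Smad7 read 220.3 and 200.3 against 189, 218 and 269 (0.13); in both, double-null pool 3 was the highest array.

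Of the 4 target genes 2 had positive and 2 negative values. Pmepa1, a TGF-beta induced membrane protein that dampens TGF-beta signalling, read 136 and 109 in wildtype and 231, 172 and 157 in double-null pools. All double-null arrays were higher, as for 9.45% of all genes. The difference was 0.47 ± 0.20 (1.38-fold, adjusted p = 0.76), with 0.40 in table A and 0.52 in table B. Of its other probe sets above the filter 1 was at 0.26 and 1 at -0.17, and the mean over probe sets gave 0.19.

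The Id genes, whose Id2 and Id3 promoters are printed above, had overlapping groups. Id1 read 329.6 and 329.7 on the wildtype arrays and 290.5, 228 and 411 in double-null pools, values on either side of wildtype (-0.034, 95% interval -0.47 to 0.40). Id2 read 362 and 414 against 579, 469.7 and 386 (0.24), with a second probe set at -0.18. Id3 read 809 and 528 against 364, 637 and 605, at -0.32 ± 0.26 (adjusted p = 0.95). Id3 was at 0.21 in table A and -0.71 in table B, so its sign differed between the tables.

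Within the tables, which share no array, members had the same sign at a share near that of all genes. Double-null minus wildtype had the same sign in table A (1 array against 1) and table B (2 against 1) for 15 of 30 members, against 47.3% of all genes tested. With 1 wildtype array per table there was no test within table A. The median over the 30 was 0.16 in table A and 0.14 in table B, against -0.016 and -0.0075 over all genes. By role, the latent binding proteins had medians of 0.16 and 0.40, the antagonists 0.26 and 0.17 and the receptors 0.025 and 0.23. The antagonist medians came from different genes that changed sign between the tables. Chrdl1 was at 0.26 in table A and -0.50 in table B, and Grem1 at -0.35 and 0.17. Of the 3 antagonists only 1, Fstl1, kept its sign. The ligands were at 0.11 and -0.15, the Smads at 0.23 and -0.027 and the targets at 0.26 and 0.094.

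**Figure D4:**
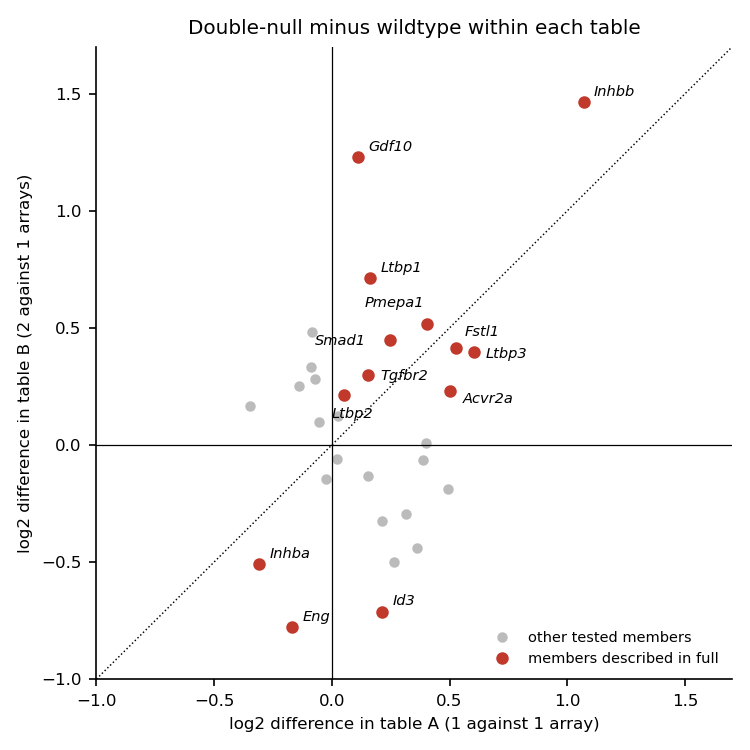
Log2 difference, double-null minus wildtype, in table A (x axis) against table B (y axis) for the 30 tested members, with members described in full in red and equality as a dotted line. Inhbb is the highest on both axes (1.07 and 1.47), Gdf10 is at 0.11 and 1.23, and Id3 lies in the quadrant of opposite signs.

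Other genes of the pathway also gave no call. Of 82 further listed ligands, activators, antagonists, receptors, Smad regulators and targets, 61 had a probe set and 33 were tested. None passed over all genes. At an unadjusted p under 0.05, 2 were higher (3.52% of all genes) and 1 lower (2.65% of all genes), and 20 of 33 were positive (47.9% of all genes), with a median of 0.019. Nbl1, a BMP antagonist of the DAN family, read 166 and 48.6 in wildtype and 219.7, 149 and 282 in double-null pools. The groups overlapped (0.94 ± 0.33, adjusted p = 0.65), and the size came from table A (1.96 against 0.16 in table B). In wildtype pool 2 Nbl1 lay under the filter signal of 98.5. Without double-null pool 2, the lowest of the double-null arrays, Nbl1 was at 1.19 (limma adjusted p = 0.00044), a value that rests on dropping that array. Over the alternative settings its adjusted p ran from 0.00044 to 0.87.

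Ltbp4, another latent binding protein gene, read 187 and 134 in wildtype and 241, 235 and 212 in double-null pools. All double-null arrays were above both wildtype arrays, as for 9.45% of all genes and for the brightest probe sets of the other Ltbp genes. The difference was 0.44 ± 0.18 (limma adjusted p = 0.74). Gdf9, an oocyte ligand, read 219 and 206 against 150.1, 137 and 157, with the groups apart, at -0.42 ± 0.18 (adjusted p = 0.77). The cell-cycle inhibitor gene Cdkn1a, a TGF-beta target, was at 0.39, the antagonist gene Sost at 0.31 and the convertase gene Furin at -0.28, with adjusted p of 0.85, 0.93 and 0.94 and overlapping groups.

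Markers of fibrous tissue were higher in the double-null joints beside these genes. All 11 tested of 12 tendon and fibrous tissue markers were positive, with a median of 1.02. List sums are of deposited signals, before quantile normalisation. The sum of this list ran from 10112 to 11903 in wildtype and from 20656 to 24603 in double-null pools. Of its genes Col3a1, Col6a1 and Lum passed the threshold, and no marker of that list lay under the Bacillus controls on all arrays. The adipocyte list summed to 4633 and 4790 in wildtype and to 3759 to 3861 in double-null pools, with 4 of 5 tested members negative and a median of -0.36. The B lineage sum was lower in double-null pools (3757 and 3872 against 2978 to 3697), but only by little in table A (3757 against 3697). Of its 8 tested members 4 were positive and 4 negative, with a median of -0.12, so the list had no common direction. The osteoclast list overlapped (8201 and 13510 against 7846 to 8648), with 5 of 5 tested members negative and a median of -0.28. The chondrocyte list (9868 and 18965 against 12802 to 14569) and the osteoblast list (26793 and 43181 against 27251 to 37244) overlapped, as did the skeletal muscle, erythroid, neutrophil and macrophage lists. Negative values were 9 of 10 tested in the neutrophil list, 7 of 9 in the chondrocyte list and 5 of 7 in the osteoblast list. They were 6 of 9 in the muscle list, 6 of 10 in the macrophage list and 3 of 6 in the erythroid list. These lists too were drawn up with results known, and their part in the values of Inhbb, Gdf10, the Ltbp genes, Fstl1 and Pmepa1 was not tested.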

How the data were processed

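Per the labels' protocols, joint RNA was biotin-labelled by in vitro transcription for Affymetrix chips. The deposited intensities are linear signals per probe set, and the submitters' processing notes name MAS5. For its version and scaling target, the sources used here give nothing. Each of the 5 arrays had 22690 probe sets and a 2% trimmed mean near 250.1. The number of arrays limits the precision.

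After adding 32 and taking log2, arrays were quantile normalised. Symbols came from the platform annotation: 20380 probe sets had 1 symbol, 691 several and 1606 none. For 20351 the Entrez number was found in RefSeq (GRCm38.p6) and the symbol given there was used, whether or not it differed. Genes above the 40th percentile were fitted with limma 3.58.1 in R 4.3.3 (intensity trend, table as a term, 2 residual and 9.80 prior degrees of freedom, two-sided), with Benjamini-Hochberg adjustment at 0.05. On simulated data for this comparison of 7436 genes known changes of 1 (log2) were found for 94.1% of genes and changes of 2 for 100%. There were 12.6 false calls per draw on average (100 genes changed by each size). With that many changed genes the adjusted threshold is easier to pass than in the data, where 9 genes passed. Inhbb, at 1.30, missed it there, so the simulated shares do not give the power of the real comparison. A full fold change was printed for members with groups apart or a difference of at least 0.25, up to 6 per role (13 genes), and for the 6 other pathway genes with the smallest p. Members and lists were chosen with earlier results of these data known. Whether pools of a group were prepared separately is not stated, so p-values measure the spread between these samples, which may be technical. Alternatives were other scalings (deposited, median centring), a smaller and a larger pseudocount, no filter or the 60th percentile, no table term, table B alone, a replicate block, no trend, the mean over probe sets, and leaving out each array.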

Additional observations from a re-analysis of the deposited data

How the results depend on the processing

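Over the 16 alternatives no member passed the threshold, except that leaving out 1 array gave 0 to 1 (Inhbb, without double-null pool 1), while the count over all genes ran from 0 to 50. The median of the members stayed positive: 0.081 with the larger pseudocount, and 0.11 to 0.16 without any 1 array. With the filter at the 60th percentile 15 members were left, 9 of them positive. Without single arrays Id3 ran from -0.72 to 0.21, Furin from -0.66 to 0.22 and Sost from -0.13 to 0.65, each turning sign without wildtype pool 1. That setting rests on the contrast of table A, and dropping either array of table A leaves the contrast of table B. The groups share replicate numbers 1 and 2, but nothing ties such pools together: their deviations correlated at 0.0048 and -0.18 across genes. With a replicate block in place of the table the member median was 0.092 and 0 genes of all passed. Bgn missed the threshold on its 3 probe sets with table B alone and when wildtype pool 1 or either array of table A was dropped. Dim members (Inhbb in wildtype, Gdf5, Nog) are limited by background, and the Inhbb value ran from 0.71 to 1.80.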

Other observations

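Wildtype pool 1 had the highest signal of the 5 arrays for several member probe sets. Eng read 558 there and 218 to 383 elsewhere, Id3 809 against 364 to 637, the second Ltbp3 probe set 429.9 against 182 to 261, and the Acvr1 probe sets below its brightest 150.2 and 233 against at most 98.2 and 131. The same pool was highest for the summed deposited signals of osteoclast markers (13510 against 7846 to 8648), chondrocyte markers (18965 against 9868 to 14569) and neutrophil markers (146955 against 91145 to 128372). It was also highest for the osteoblast, macrophage, B lineage and adipocyte sums. For the skeletal muscle, erythroid, endothelial and fibrous tissue sums another pool was highest. These sums were taken before quantile normalisation, and the brightest signal of that array was 26173 against 15422 to 24381 on the others. Fitted on the normalised scale, the double-null over wildtype medians of the osteoclast, chondrocyte and neutrophil lists were -0.28, -0.11 and -0.095. Those medians do not compare wildtype pool 1 with the other arrays. The part of tissue composition or of array scaling in these member values was not tested.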
